A study of Mus musculus with 24 samples.

Results

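Transcripts of respiratory complexes II and III, of cytochrome c and of the ATP synthase were followed in left ventricular tissue of newborn mice by RNA sequencing. The genes were the protein-coding entries of the count table whose symbols begin as those of the succinate dehydrogenase (Sdh), ubiquinol-cytochrome c reductase (Uqcr, Uqcc, Cyc1), cytochrome c (Cycs) and ATP synthase (Atp5, Atpaf) families, with counts in at least 1 library. This gave 40 genes of 39396 in the table, of which 27016 had counts in some library. Complex II contributed 4 subunits and 4 assembly factors. Complex III contributed 9 subunits and 3 assembly factors, and cytochrome c 1 gene. The ATP synthase contributed 5 subunits of the catalytic F1 part, 12 of the membrane part Fo with its stalk, and 2 assembly factors. All 40 had counts and passed the filter on low counts.

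Cardiomyocytes of the mutant mice (DKO) carried, per the labels, an embryonic and cardiomyocyte-selective deletion of both Rhot1 and Rhot2. Both genes code for Miro proteins of the outer mitochondrial membrane, through which motor proteins move mitochondria along microtubules. Each genotype was sampled by 6 libraries at the age labelled d1 (day 1) and by a further 6 at the age labelled d7 (day 7), 24 in all. The alleles the controls carry, the strain and the Cre driver are not given in the labels. The labels name cardiomyocytes as the cell type, whereas the protocol names ventricular tissue, so RNA of other heart cells was included. In such bulk samples fewer cells of a type and less RNA per cell cannot be told apart.

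These genes make up the later steps of oxidative phosphorylation. Complex II oxidises succinate and passes electrons to coenzyme Q. Complex III takes them from coenzyme Q to cytochrome c, a small soluble carrier. The ATP synthase lets protons flow back through a ring of c subunits in the inner membrane, and the turning ring drives ATP formation by the F1 head. All subunits of complex II are made from nuclear genes, whereas cytochrome b of complex III and subunits a and 8 of the ATP synthase come from mitochondrial DNA. The heart depends on this machinery more than most organs, and its mitochondria expand after birth as the muscle turns from glucose to fatty acids.

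Total counts per library were 30318018 to 45806171 among the 12 libraries labelled day 1 and 17334498 to 30453874 among the 12 labelled day 7. Levels are counts scaled to library size (CPM). Rhot1 at labelled day 1 was 129 to 173 CPM in controls against 107 to 136 CPM in DKO, with log2 −0.42 ± 0.08 (SE, edgeR adjusted p = 0.0011). The corresponding levels at labelled day 7 were 144 to 164 and 123 to 151 CPM, with log2 −0.25 ± 0.06 (edgeR adjusted p = 0.0871). Rhot2 had no counts, so its loss was not measured. The libraries of the labelled ages also differed in other ways. Every one of the 12 younger-labelled libraries held Y-linked transcripts, but just 4 of the 12 older-labelled ones did, 2 per genotype. Markers of immature heart muscle and of division were higher at labelled day 7 in controls, among them Myh7 at log2 2.28, Tnni1 at 1.65 and Ccnb1 at 1.65, while Tnni3 of mature muscle was at −0.74. That order is opposite to known heart development. The labelled ages came as separate sets of libraries with almost no overlap in depth, and labelled age cannot be told apart from either. The labels are used here as given.

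Together the 40 genes took 3.22 to 3.71% of counts in controls and 3.29 to 3.51% in DKO libraries labelled day 1. At labelled day 7 they took 2.72 to 3.15% and 2.75 to 3.14%. On a scale of CPM per kilobase of the principal transcript (GENCODE M21), the highest level in controls labelled day 1 was that of Atp5b, the catalytic beta subunit, at 2337 ± 203 (SD, n = 6). The 9 assembly factors were low on the same scale, from 2.35 ± 0.38 for Sdhaf1 to 248 ± 13.2 for Uqcc2, a cytochrome b assembly factor. Of the 31 other genes, Sdhc, a membrane anchor of complex II, was lowest, at 142 ± 22.2 CPM per kilobase. Levels between genes depend on the transcript length chosen.

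The comparison of DKO with control ventricles asks whether loss of the Miro proteins went with a change in these transcripts. At labelled day 1, 0 of the 40 genes passed the threshold (edgeR adjusted p under 0.05), whereas 17.6% of the 17352 genes tested did. In libraries labelled day 7 again 0 of 40 passed, beside 1.02% of all genes tested. An unadjusted edgeR p under 0.05 was reached by 7 of the 40 genes at labelled day 1 and by 0 at labelled day 7. Of all 17352 genes tested, 2575 were higher and 2639 lower at that level at labelled day 1, and 1307 and 1135 at labelled day 7. The lowest adjusted p values were 0.056 for Atp5j and 0.367 for Sdha. DESeq2 called 1 gene lower at labelled day 1, Atp5j, beside 20.4% of all genes in either direction, and 0 at labelled day 7. By direction, edgeR called 9.81% of all genes higher and 7.79% lower at labelled day 1, and 0.686% and 0.334% at labelled day 7. In further fits a trend of counts with gene length was removed from each library. At labelled day 1, 5 of the 40 were then lower for exonic length, 11 for transcript length and 2 for coding length. Of all genes, 16.4%, 17.1% and 17.2% passed in these fits in either direction. The median log2 difference was −0.03 over the 40 genes and −0.02 over all genes tested at labelled day 1. Among libraries labelled day 7 the medians were 0.00 and −0.01.

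The intervals show how large a difference the main fit could hide, with no length trend removed. Values from the alternative fits can lie outside them, as for Atp5l at labelled day 1 with the transcript length trend removed. At labelled day 1 the 95% intervals of all 40 genes lay within 0.5 of 0 on the log2 scale, and those of 29 lay within 0.25. The outermost bounds were −0.45 for Sdhaf1 and 0.27 for Uqcc3. At labelled day 7, 39 intervals lay within 0.5 and 22 within 0.25, the outermost bounds being −0.57 for Atp5g3 and 0.40 for Atp5md. For every one of the 40 genes the CPM ranges of control and DKO libraries overlapped at both labelled ages, whereas they were apart for 9.4% of all genes at labelled day 1 and for 1.69% at labelled day 7.

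**Figure D1:**
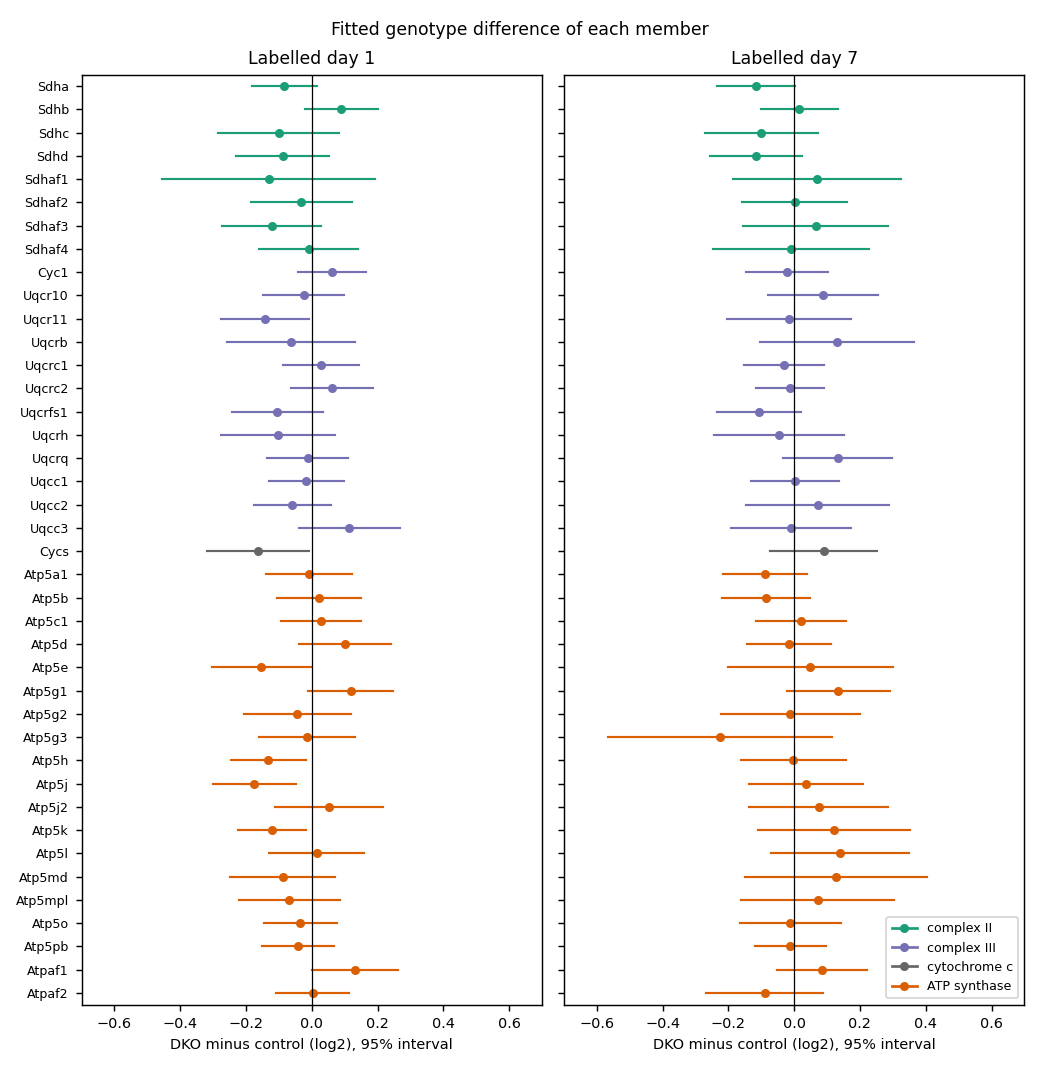
Fitted difference between DKO and control (log2, horizontal axis) of each of the 40 genes (rows, coloured by complex) at labelled day 1 and labelled day 7, with 95% intervals from 6 libraries a group. None of the genes passed the adjusted threshold, and the outermost bounds were −0.45 (Sdhaf1) at labelled day 1 and −0.57 (Atp5g3) at labelled day 7.

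Split by complex, the medians at labelled day 1 were close to 0. The median log2 difference was −0.09 over the 8 complex II genes, −0.02 over the 12 of complex III and −0.01 over the 19 of the ATP synthase. For labelled day 7 these medians were 0.00, −0.01 and 0.02. Of the 40 differences at labelled day 1, 13 were above 0 and 27 below with the main scaling, and 18 were above and 22 below with upper quartile scaling. With the atrial markers as a covariate 27 were above and 13 below. Among the neighbouring families, 0 of 45 tested complex I genes (Nduf) were higher and 1 was lower at labelled day 1, and 2 of 15 cytochrome oxidase genes (Cox4 to Cox8) were higher and 2 lower. Of all genes tested, 9.81% were higher and 7.79% lower. None of these 60 complex I and cytochrome oxidase genes passed at labelled day 7 with edgeR, beside 1.02% of all genes tested. There 3 of the complex I genes and 0 of the cytochrome oxidase genes had an unadjusted p under 0.05. Of all 17352 genes tested, 1307 were higher and 1135 lower at that level.

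Some markers of heart muscle and of other muscle differed with genotype at labelled day 1, where 9.81% of all genes tested were higher and 7.79% lower. Of 8 cardiomyocyte markers 3 (Ryr2, Tnnt2 and Ttn) were lower in DKO and 0 higher, with a median log2 difference of −0.16. Their sums were 50440 to 62420 CPM in controls and 49370 to 53950 CPM in DKO. Of 6 atrial markers 3 were lower and 1 higher in DKO, and their summed level ranged from 77.5 to 549.8 CPM in controls and from 137 to 846 CPM in DKO. Of 5 skeletal muscle markers 4 were higher, with sums of 13.8 to 18.96 CPM in controls and 37.3 to 66.3 CPM in DKO. No defining marker of these lists was at 0. Without the 4 controls that had over 50 CPM of the atrial gene Myl7, the count of genes called among the 40 was also 0. This fit, added after the data were seen, kept 2 controls, and 16.8% of all genes passed. With the atrial markers as a covariate the count was 0 as well, beside 20.9% of all genes.

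Complex II is the enzyme shared with the citric acid cycle. Sdha, the flavoprotein that oxidises succinate, ranged from 1629 to 1805 CPM with a median of 1760 in controls labelled day 1, and from 1580 to 1740 with a median of 1634 in DKO. At labelled day 7 it ranged from 1769 to 1887 with a median of 1801 in controls and from 1521 to 1802 with a median of 1700 in DKO. The DKO libraries were lower in the middle of their range at both ages and overlapped the controls. The log2 differences were −0.08 ± 0.05 (edgeR adjusted p = 0.251) and −0.12 ± 0.06 (adjusted p = 0.367). Sdhb, the iron-sulfur subunit, had medians of 1342 CPM in controls and 1464 CPM in DKO labelled day 1, within ranges of 1285 to 1441 and 1309 to 1516. In libraries labelled day 7 its medians were 1419 and 1466 CPM, within 1318 to 1477 and 1302 to 1527. Its log2 differences were 0.09 ± 0.05 (adjusted p = 0.269) and 0.02 ± 0.06 (adjusted p = 0.931), so the catalytic pair did not lean the same way. The assembly factors of complex II differed by −0.13 to −0.01 at labelled day 1 and by −0.01 to 0.07 at labelled day 7, none past the threshold.

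In complex III, Uqcrc1, a core protein, had medians of 2679 CPM in controls and 2743 CPM in DKO labelled day 1, within 2354 to 2895 and 2574 to 2798. Among libraries labelled day 7 the medians were 2258 and 2243 CPM, within 2198 to 2458 and 2021 to 2470. Its genotype differences were 0.03 ± 0.05 (edgeR adjusted p = 0.787) and −0.03 ± 0.06 (adjusted p = 0.862), and the ranges overlapped. Uqcrfs1, the Rieske iron-sulfur protein, had medians of 1182 and 1116 CPM at labelled day 1, within 1028 to 1321 in controls and 997 to 1164 in DKO. For labelled day 7 its medians were 1031 and 975.5 CPM, within 958 to 1081 and 863 to 1052. It differed by −0.10 ± 0.07 (adjusted p = 0.309) and −0.11 ± 0.06 (adjusted p = 0.452). Cyc1, cytochrome c1, had medians of 1266 and 1352 CPM at labelled day 1, within 1214 to 1369 in controls and 1249 to 1365 in DKO. At labelled day 7 its medians were 1282 and 1291 CPM, within 1197 to 1363 and 1161 to 1400, and the differences were 0.06 ± 0.05 and −0.02 ± 0.06.

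Cycs, the soluble electron carrier that also triggers the caspase cascade when released, showed the lowest adjusted p for a difference of the DKO effect between the labelled ages. Its median was 2685 CPM in controls and 2484 CPM in DKO labelled day 1, within 2449 to 2879 and 1932 to 2609. In libraries labelled day 7 the order was the other way, with medians of 1906 and 2023 CPM within 1590 to 2002 and 1624 to 2194. The log2 differences were −0.16 ± 0.07 (edgeR adjusted p = 0.141) and 0.09 ± 0.08 (adjusted p = 0.648), and they differed from each other by 0.26 ± 0.11 (adjusted p = 0.347). Over the 40 genes, 0 differed between the labelled ages in their DKO effect with edgeR, beside 1.08% of all genes tested (0.311% higher and 0.766% lower). At an unadjusted p under 0.05 there were 2, Atp5j and Cycs, beside 966 genes higher and 1013 lower of all 17352 tested. DESeq2 called 0 of the 40, beside 2.1% of all genes. With a length trend removed, 2 genes were called higher for exonic length (Atp5k and Uqcr10), 3 for transcript length and 0 for coding length. Of all genes, 1.03%, 1.15% and 1.19% passed in these fits in either direction.

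**Figure D2:**
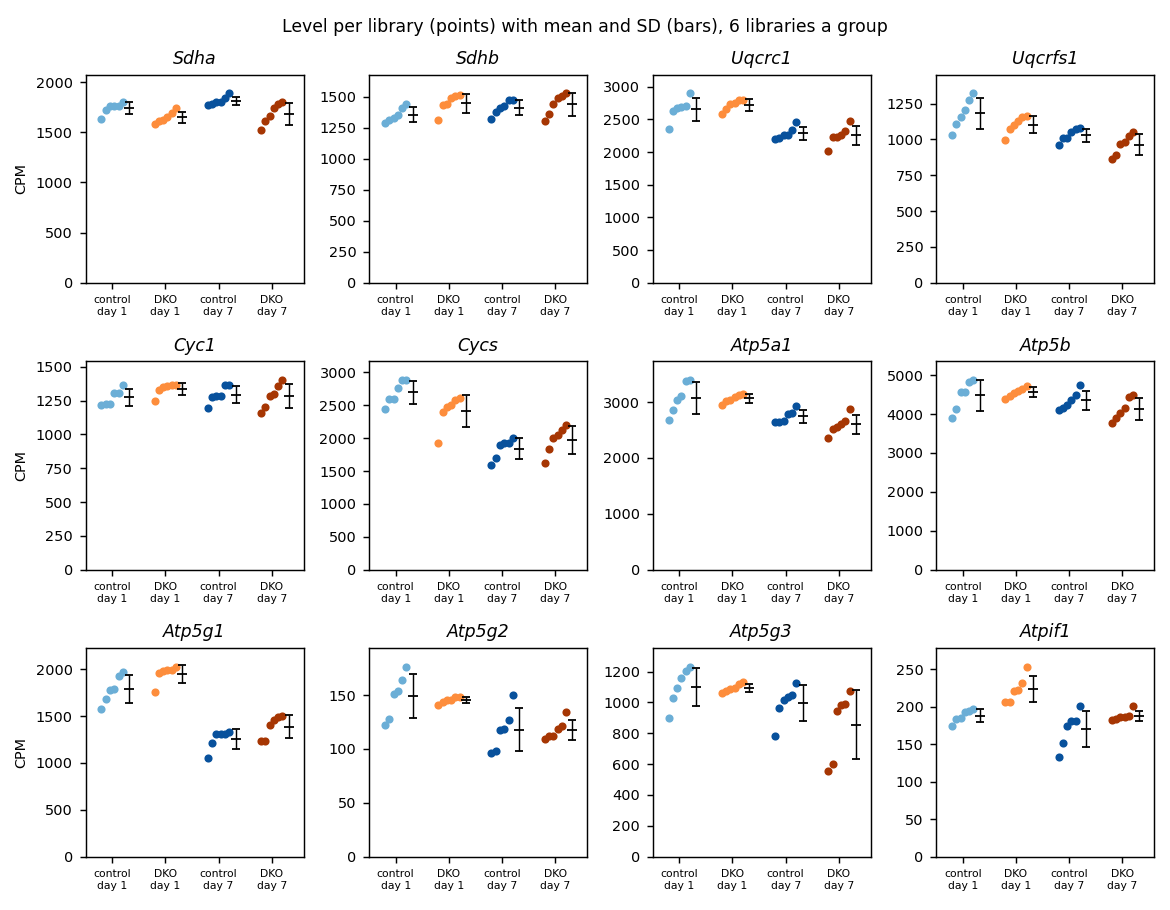
Level in CPM (vertical axis, from 0) of 11 subunits and of the inhibitor Atpif1 in each library of the 4 groups, with the mean and SD of 6 libraries beside the points. The 11 subunits overlap between control and DKO within each labelled age, Atpif1 does not at labelled day 1, and 2 DKO libraries labelled day 7 lie at 552 and 599.9 CPM of Atp5g3.

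The F1 head of the ATP synthase is built around the alpha and beta subunits. Atp5a1, alpha, had medians of 3070 CPM in controls and 3073 CPM in DKO labelled day 1, within 2678 to 3390 and 2952 to 3154. Among libraries labelled day 7 they were 2725 and 2582 CPM, within 2640 to 2935 and 2365 to 2882. Atp5b had medians of 4576 and 4570 CPM at labelled day 1, within 3898 to 4867 in controls and 4381 to 4729 in DKO. For labelled day 7 they were 4302 and 4085 CPM, within 4094 to 4755 and 3782 to 4479. Neither gene passed at either labelled age: alpha differed by −0.01 ± 0.06 and −0.09 ± 0.06, and beta by 0.02 ± 0.06 and −0.09 ± 0.06. Of the peripheral stalk, Atp5j (coupling factor F6) had the difference nearest the threshold at labelled day 1, −0.17 ± 0.06 (edgeR adjusted p = 0.056), beside 0.04 ± 0.08 at labelled day 7. Part of its exonic bases, 18.5%, lie within the gene Gabpa, and the library kit does not mark strand.

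The c ring of the ATP synthase is made from 3 nuclear genes, Atp5g1, Atp5g2 and Atp5g3 (also Atp5mc1 to Atp5mc3), which encode the same mature subunit behind different targeting peptides. They therefore differ in how much each gene contributes, not in the subunit they make. Their upstream sequences are shown because the genes share a product but not a promoter. Each is the stretch of 250 bases before the start of the gene, from RefSeq on GRCm38.p6, 5′ to 3′ on the strand of the gene, with motif letters in capitals. GENCODE M21 places some starts elsewhere: the RefSeq start lies 1305 bases downstream of it for Atp5g2 and 39 for Atp5g1, so these stretches lie wholly or in part inside the M21 gene, and it is the same base for Atp5g3.
Atp5g1: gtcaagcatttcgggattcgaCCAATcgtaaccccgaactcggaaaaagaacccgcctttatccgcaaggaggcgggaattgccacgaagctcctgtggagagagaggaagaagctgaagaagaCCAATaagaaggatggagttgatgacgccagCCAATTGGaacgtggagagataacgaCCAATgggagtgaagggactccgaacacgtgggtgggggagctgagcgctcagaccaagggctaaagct
Atp5g2: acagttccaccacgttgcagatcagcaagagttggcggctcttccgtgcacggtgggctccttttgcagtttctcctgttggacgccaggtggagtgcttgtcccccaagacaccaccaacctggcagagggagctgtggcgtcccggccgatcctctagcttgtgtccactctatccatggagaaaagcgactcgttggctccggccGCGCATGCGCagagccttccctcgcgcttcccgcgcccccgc
Atp5g3: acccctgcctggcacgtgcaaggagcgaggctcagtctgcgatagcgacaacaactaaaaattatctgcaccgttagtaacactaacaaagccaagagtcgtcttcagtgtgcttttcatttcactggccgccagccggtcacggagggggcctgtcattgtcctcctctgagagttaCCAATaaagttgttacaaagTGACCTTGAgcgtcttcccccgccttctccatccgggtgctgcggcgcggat
The Atp5g1 stretch is chr11:96075632-96075881 (minus strand), the Atp5g2 stretch chr15:102671048-102671297 (minus strand) and the Atp5g3 stretch chr2:73911327-73911576 (minus strand). Capitals mark the CCAAT box (CCAAT), the NRF1 motif (the run of 10 capitals in the Atp5g2 stretch) and the ERR motif (TCAAGGTCA), each searched on both strands. The 5 CCAAT matches of Atp5g1 include a pair on opposite strands that overlap by 2 bases. Atp5g2 held the NRF1 letters 42 bases before the start and Atp5g3 the ERR letters, on the opposite strand, 52 bases before it.

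Letter matches of this kind were counted in the same stretch of all 27025 genes of the RefSeq table, of which 33 were among the 40 studied. The NRF1 letters were in 2 of the 33 (Atp5k and Atp5g2) and in 0.877% of all genes, and the ERR letters in 1 of 33 and in 0.422%. CCAAT was in 19 of 33 and in 37.5% of all genes. The ETS letters CCGGAAG were in 9 of 33 and in 7.83%, the GC box GGGCGG in 13 of 33 and in 35.4%, and TATAAA in 2 of 33 and in 14.3%. These are matches of letters in fixed windows and say nothing of binding.

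Atp5g1 contributed a larger share of the counts of the 3 genes in DKO than in control libraries at both labelled ages. In libraries labelled day 1 its share was 56.0 to 60.7% in controls with a median of 59.1%, and 59.2 to 62.4% in DKO with a median of 61.3%. The DKO mean was higher by 2.18 percentage points (exact two-sided permutation test over all splits of 6 and 6, p = 0.0238, adjusted over 8 tests p = 0.0381). Of the 12 analyses without 1 library each, 8 lost this call, with adjusted p up to 0.0935. At labelled day 7 the share was 51.0 to 54.4% in controls with a median of 53.3%, and 53.6 to 66.5% in DKO with a median of 57.4%. The difference of the means was 6.11 percentage points (exact permutation p = 0.00433, adjusted p = 0.0173). The groups overlapped at both labelled ages, from 59.2 to 60.7% at labelled day 1 and from 53.6 to 54.4% at labelled day 7.

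The size of the difference at labelled day 7 rested on DKO m1124 and m1128, which had shares of 65.0 and 66.5%. Without both it was 2.83 percentage points (exact permutation over 210 splits, p = 0.00952, adjusted p = 0.0254). In those 2 libraries it was Atp5g3 that stood apart, at 552 and 599.9 CPM, whereas the other 4 DKO libraries had 945 to 1074 CPM and the controls 779.5 CPM or more. The same libraries also stood apart in the summed atrial markers, at 2513 CPM (m1124) and 1674 CPM (m1128), against 612 to 744 CPM in the other 4 DKO libraries and 411 to 719 CPM in controls. The part of atrial tissue in the share and in Atp5g3 was not tested. Atp5g1 by itself ranged from 1048 to 1332 CPM among controls labelled day 7 (median 1311), against 1230 to 1497 CPM for DKO (median 1434). At labelled day 1 it ranged from 1577 to 1974 CPM with a median of 1788 in controls and from 1761 to 2023 with a median of 1984 in DKO. As single genes, none of the 3 passed. Atp5g1 differed by 0.12 ± 0.06 (edgeR adjusted p = 0.211) and 0.13 ± 0.07 (adjusted p = 0.433), and Atp5g3 by −0.01 ± 0.07 and −0.23 ± 0.16. Atp5g2 was the minor gene at 4.23 to 5.90% of the counts of the 3 in every library. Its medians at labelled day 1 were 152 CPM in controls and 145 CPM in DKO, within 122 to 176 and 140.5 to 148.5, and its difference was −0.04 ± 0.08. In libraries labelled day 7 its medians were 118 and 115 CPM, within 96.2 to 149.9 and 109 to 135, and its difference −0.01 ± 0.10. The 3 genes are similar in their coding part, so the split of reads between them depends on how the authors treated reads with several matches, which is not given in the sources used here.

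Atpif1 (Atp5if1) encodes the small protein that binds the F1 head and blocks ATP hydrolysis when the membrane potential collapses. Its symbol falls outside the rule for the 40 genes, and it was measured beside them. In libraries labelled day 1 it ranged from 174 to 197 CPM with a median of 189 in controls and from 206.5 to 253 CPM with a median of 222 in DKO. The groups did not overlap, and the log2 difference was 0.25 ± 0.06 (edgeR adjusted p = 0.0069). Among libraries labelled day 7 it ranged from 133 to 201 CPM with a median of 177 in controls and from 182 to 201 CPM with a median of 187 in DKO, a difference of 0.13 ± 0.08 (adjusted p = 0.501). The difference at labelled day 1 was 0.01 (adjusted p = 0.961) when a trend with transcript length was removed, an alternative added after the data were seen.

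Set against its target, the ratio of Atpif1 to Atp5b counts needs no scaling between libraries. Such a ratio does not take out a trend of counts with gene length. Neither this ratio nor the Atp5g1 share was tested with a length trend removed. At labelled day 1 it was 0.0360 to 0.0475 in controls with a median of 0.0424, and 0.0454 to 0.0551 in DKO with a median of 0.0484. The mean rose by 0.00683 (exact two-sided permutation test, p = 0.00649, adjusted over 8 tests p = 0.0173), a call that held in each analysis without 1 library. For labelled day 7 it was 0.0318 to 0.0423 in controls with a median of 0.0407, and 0.0407 to 0.0492 in DKO with a median of 0.0473. The difference was 0.00672 (exact permutation p = 0.0216, adjusted p = 0.0381). That call was lost in 6 of the 12 analyses without 1 library and without DKO m1124 and m1128 (0.00523, adjusted p = 0.16).

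**Figure D3:**
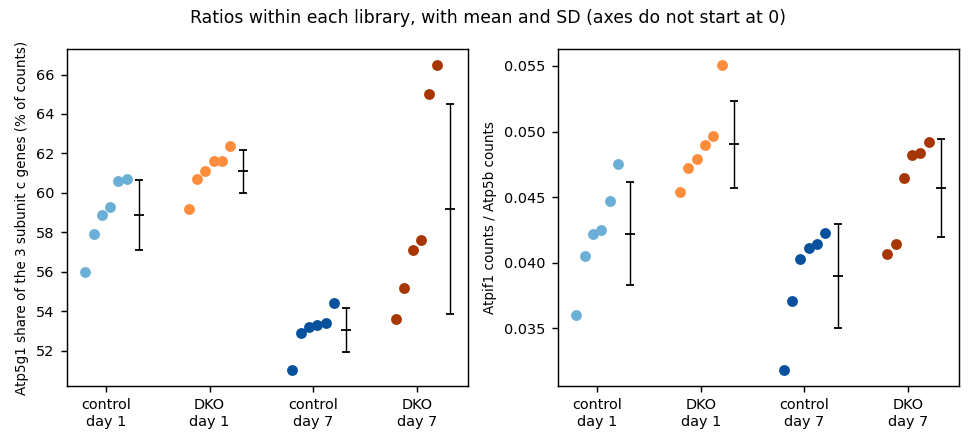
Atp5g1 share of the counts of the 3 subunit c genes (left, percent) and ratio of Atpif1 to Atp5b counts (right) in each library of the 4 groups, with mean and SD of 6 libraries. The DKO means lie higher at both labelled ages, the groups overlap, and 2 DKO libraries labelled day 7 reach 65.0 and 66.5% at the left.

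The other genes of the pathway were 30, of which 27 were tested. At labelled day 7, 0 of the 27 passed with edgeR, beside 1.02% of all genes tested. An unadjusted p under 0.05 was reached by 0 of them there, beside 1307 genes higher and 1135 lower of all 17352. At labelled day 1, 5 of the 27 were higher and 0 lower in DKO, beside 9.81% and 7.79% of all genes tested. Slc25a5, the adenine nucleotide translocase that carries ADP and ATP across the inner membrane in dividing cells, ranged from 1112 to 1359 CPM in controls with a median of 1194 and from 1512 to 1722 in DKO with a median of 1542. These ranges were apart, and the log2 difference was 0.39 ± 0.06 (edgeR adjusted p = 0.0005). Slc25a4, the translocase of heart and muscle, differed by 0.03 ± 0.06. Its mean was 8177 ± 608 CPM (SD, n = 6) among controls, against 8380 ± 394 CPM (SD, n = 6) for DKO. Of 13 genes of coenzyme Q synthesis, 3 were higher at labelled day 1. They were Coq3, a methyltransferase, by 0.21 ± 0.06 (adjusted p = 0.0219), Pdss2, which makes the polyprenyl tail, by 0.17 ± 0.05 (adjusted p = 0.0251), and the kinase-like Coq8b by 0.37 ± 0.11 (adjusted p = 0.0257). Each of these 3 calls was lost in at least 1 analysis without a single library. The fifth was Atpif1. Assembly factors of complex III outside the rule (Bcs1l, Ttc19, Lyrm7) and of the ATP synthase (Tmem70, Tmem242, Fmc1, Dmac2l, Atpsckmt) did not pass. The mitochondrially encoded partners mt-Cytb, mt-Atp6 and mt-Atp8 were at 0 counts in all libraries.

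Labelled age went with larger differences than genotype. From labelled day 1 to labelled day 7, 30 of the 40 genes fell and 3 rose in controls, where 25.6% of all genes tested fell and 27.4% rose (53.1% in either direction). In DKO, 31 fell and 2 rose, beside 25.3% and 27.3% (52.5% in either direction). The median log2 difference over the 40 genes was −0.33 in controls and −0.32 in DKO, and over all genes 0.01 and 0.02. The CPM ranges of the labelled ages were apart for 19 of the 40 genes in controls (26.8% of all genes) and for 24 in DKO (30.8%). Of the 12 complex III genes 11 fell in both genotypes, all but Cyc1. Of the 12 Fo genes 10 fell in each genotype, not the same 10: Atp5o passed in neither, Atp5g3 passed in DKO alone and Atp5pb, of the peripheral stalk, in controls alone. Of the 5 F1 genes 3 fell in controls and 5 in DKO. Complex II had 5 of 8 lower in controls and 4 of 8 in DKO, with 1 higher in each. The risers were assembly factors, but other assembly factors fell. In controls 3 of 4 of complex II and 3 of 3 of complex III fell, and in DKO 2 of 4 and 3 of 3. Sdhaf1, which inserts iron-sulfur clusters into complex II, rose by 0.53 ± 0.14 in controls and 0.73 ± 0.14 in DKO. Atpaf1, the chaperone of the beta subunit, rose by 0.27 ± 0.06 and 0.22 ± 0.06. Atpaf2, the chaperone of the alpha subunit, rose by 0.21 ± 0.07 in controls and was at 0.13 ± 0.07 in DKO (edgeR adjusted p = 0.138). Most of the Sdhaf1 sequence, 69.6% of its exonic bases, lies inside another gene. Complex I and cytochrome oxidase genes also fell: 41 of 45 and 12 of 15 in controls, with medians of −0.43 and −0.64.

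The large catalytic subunits had small differences in controls. There, Sdha differed by 0.06 ± 0.05 (edgeR adjusted p = 0.297), Sdhb by 0.06 ± 0.05, Cyc1 by 0.02 ± 0.05 and Atp5b by −0.04 ± 0.06 (adjusted p = 0.581). Atp5g3 at −0.15 ± 0.13, Atp5d of the central stalk at −0.14 ± 0.06 and Atp5o of the peripheral stalk at −0.07 ± 0.06 did not pass either. In DKO, Atp5g3 fell by 0.36 ± 0.13 (edgeR adjusted p = 0.0213) and Atp5d by 0.25 ± 0.06 (adjusted p = 0.0015). In controls, Atp5a1 fell by 0.16 ± 0.06, Uqcrc1 by 0.21 ± 0.05 and Uqcrfs1 by 0.20 ± 0.06, whereas Cycs fell by 0.55 ± 0.08. The DKO falls were 0.24 ± 0.06 for Atp5a1, 0.27 ± 0.05 for Uqcrc1, 0.20 ± 0.06 for Uqcrfs1 and 0.29 ± 0.08 for Cycs. Atp5b fell in DKO by 0.14 ± 0.06, with an adjusted p of 0.0451 that passed the threshold by little and was lost in 11 analyses without 1 library. With the atrial markers as a covariate, 8 of the 33 DKO calls were lost: Atp5a1, Atp5b, Atp5c1, Atp5g3, Cycs, Sdhc, Uqcrc1 and Uqcrfs1. Calls were also lost across all genes tested, of which 29% passed in DKO with this covariate, against 52.5% in the main fit. Without DKO m1124 and m1128, 5 were lost, Atp5b, Atp5c1, Atp5g3, Sdhc and Uqcrfs1, and 47.4% of all genes passed. In controls the atrial covariate lost none of the 33, while 47.2% of all genes passed, against 53.1% in the main fit.

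Small accessory subunits fell most. Atp5k, subunit e, which helps ATP synthases pair into dimers, ranged from 399 to 434.5 CPM with a median of 423 in controls labelled day 1, and from 62.5 to 105 CPM with a median of 99.1 in controls labelled day 7. In DKO it ranged from 357 to 422 CPM and from 86.0 to 113 CPM, with medians of 381.5 and 105. The labelled ages were far apart in both genotypes, and the log2 differences were −2.16 ± 0.09 and −1.91 ± 0.09. Atp5e, the epsilon subunit of the central stalk, fell by 1.33 ± 0.10 in controls, from a median of 386 to 159 CPM, and by 1.13 ± 0.10 in DKO. Atp5md (DAPIT) fell by 1.32 ± 0.11 and 1.09 ± 0.11, Atp5mpl by 1.11 ± 0.10 and 0.96 ± 0.10, and Uqcr11 of complex III by 1.08 ± 0.08 and 0.95 ± 0.08. Within 1 enzyme, in controls, the epsilon and e subunits thus fell by more than 1 on the log2 scale where the beta subunit did not pass.

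The upstream stretches of Atp5k, which fell most, and Atp5b, which did not pass in controls, are shown side by side. Both are 250 bases before the start, 5′ to 3′ on the strand of the gene (RefSeq, GRCm38.p6), with the NRF1 letters, CCAAT and GGGCGG of either strand in capitals.
Atp5k: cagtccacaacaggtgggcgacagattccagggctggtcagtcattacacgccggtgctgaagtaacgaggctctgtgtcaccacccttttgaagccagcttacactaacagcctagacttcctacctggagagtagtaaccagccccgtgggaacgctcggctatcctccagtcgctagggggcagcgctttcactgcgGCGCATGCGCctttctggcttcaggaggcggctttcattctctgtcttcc
Atp5b: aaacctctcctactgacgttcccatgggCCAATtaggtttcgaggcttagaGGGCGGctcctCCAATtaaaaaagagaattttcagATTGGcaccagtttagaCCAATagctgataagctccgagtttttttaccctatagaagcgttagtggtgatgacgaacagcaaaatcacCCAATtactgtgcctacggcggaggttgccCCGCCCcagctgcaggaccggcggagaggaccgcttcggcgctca
The RefSeq start lies 49 bases downstream of the M21 start for Atp5k and 34 for Atp5b. The Atp5k stretch is chr5:108434400-108434649 (minus strand) and holds the NRF1 letters 50 bases before the start. The Atp5b stretch is chr10:128083057-128083306 (plus strand) and holds 5 CCAAT matches and 2 GC boxes. Of the 8 genes with under 300 coding bases and a stretch in the table, CCAAT was in 6 and the NRF1 letters in 1, and of the 25 longer ones in 13 and 1.

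The fall was graded by the length of the coding sequence, a measure chosen after the values were seen and therefore given as a description. Of the 40 genes, 10 had under 300 coding bases: Atp5e, Atp5j2, Atp5k, Atp5md, Atp5mpl, Uqcc3, Uqcr10, Uqcr11, Uqcrh and Uqcrq. All 10 fell in controls, with a median of −0.9997, and all 10 in DKO, with a median of −0.92. Of the 16 with 300 to below 600 coding bases, 13 fell and 1 rose in controls (median −0.48). Of the 9 with 600 to below 1200, 4 fell and 2 rose (median −0.07), and of the 5 with 1200 to below 2400, 3 fell (median −0.16). The same classes of all protein-coding genes tested had smaller differences. Of 319 genes with under 300 coding bases 53.6% fell in controls, with a median of −0.30, and of the 1560 with 300 to below 600 coding bases 32.5% fell, with a median of −0.08. Across the 40 genes, Spearman's rho between coding length and the log2 difference was 0.83 in controls and 0.81 in DKO, against 0.09 and 0.08 across 14457 protein-coding genes. Genes of 1 complex and libraries are shared between these points, which are not independent. With transcript length in place of coding length, rho over the 40 genes was 0.51 and 0.57, and with exonic length it was 0.37 and 0.42.

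**Figure D4:**
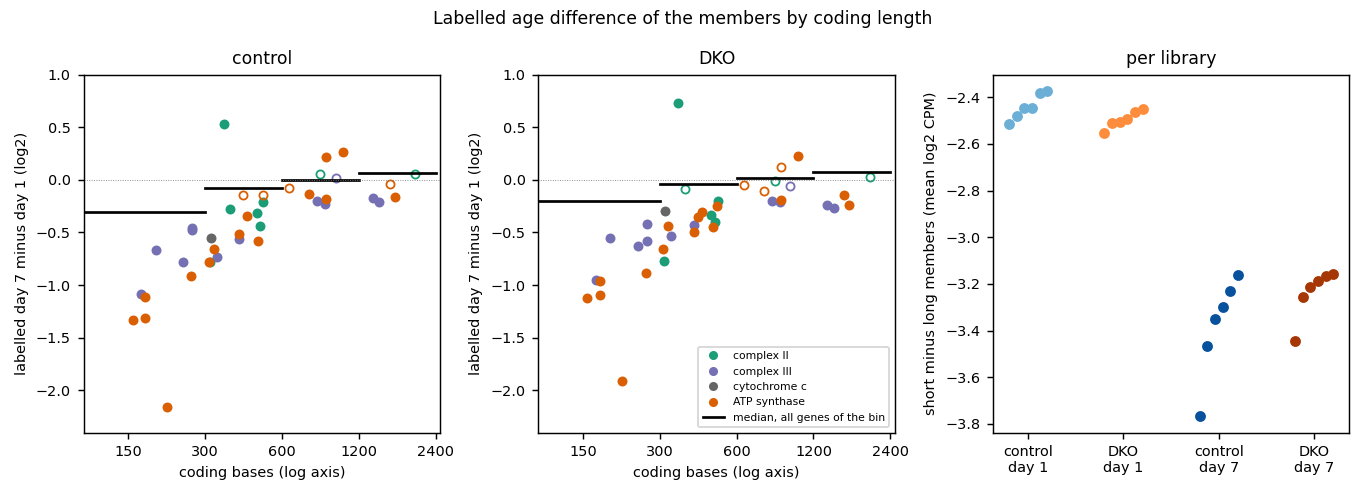
Labelled day 7 minus day 1 (log2) of the 40 genes against coding length in bases (log axis), in controls and in DKO, with filled points past the adjusted threshold and black lines at the median of all protein-coding genes in each length class. At the right, the mean log2 CPM of the 10 genes under 300 coding bases minus that of the 5 with 1200 or more, per library, lies between −2.55 and −2.37 at labelled day 1 and between −3.77 and −3.16 at labelled day 7.

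The same grading was visible library by library. The mean log2 CPM of the 10 short genes minus that of the 5 longest (Atp5a1, Atp5b, Sdha, Uqcrc1 and Uqcrc2) was −2.51 to −2.37 among controls labelled day 1, against −2.55 to −2.45 for DKO. At labelled day 7 it was −3.77 to −3.16 in controls and −3.44 to −3.16 in DKO. The labelled ages did not overlap in either genotype, and the genotypes overlapped at both. Control m1088 had the lowest value, −3.77, and also the lowest total count, 17334498. A trend of counts with coding length was also removed from each library, an alternative added after the data were seen. Then 28 of the 40 still fell and 3 rose in controls, with a median of −0.23, and 28 fell and 2 rose in DKO, with a median of −0.28. Of all genes tested, 52.8% passed in controls and 52.6% in DKO in these fits, in either direction.

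Other measures moved with labelled age. Of all genes tested, 25.6% fell and 27.4% rose in controls, and 25.3% fell and 27.3% rose in DKO. In controls 6 of 6 fibroblast, 5 of 5 endothelial and 4 of 4 macrophage markers fell, and 4 of 5 tested erythroid markers. The summed fibroblast markers lay at 3381 to 4574 CPM in controls labelled day 1 and at 1642 to 3131 CPM at labelled day 7, the endothelial sum at 874 to 1070 and 547 to 680 CPM, the macrophage sum at 45.5 to 55.6 and 22.9 to 33.2 CPM, and the erythroid sum at 11670 to 20110 and 7209 to 10870 CPM. Of the defining markers of these lists, 1 erythroid marker was at 0. The summed cardiomyocyte markers overlapped, at 50440 to 62420 and 45780 to 58150 CPM, with 2 of 8 markers higher and 3 lower. In DKO 5 of 6 fibroblast, 4 of 5 endothelial, 2 of 4 macrophage and 5 of 5 tested erythroid markers fell. Of the atrial markers 3 of 6 were higher at labelled day 7 in controls, with a median log2 difference of 0.93. Their sum in controls lay at 77.5 to 549.8 CPM at labelled day 1 and at 411 to 719 CPM at labelled day 7. In DKO 5 of 6 were higher, with a median log2 difference of 4.17. Their sum in DKO lay at 137 to 846 CPM at labelled day 1 and at 612 to 2513 CPM at labelled day 7. All 5 skeletal muscle markers were lower in DKO, with a median of −1.38 and sums of 37.3 to 66.3 and 15.6 to 26.5 CPM. In controls 1 of the 5 was lower, with a median of −0.29. The part of these cell types in the fall of the 40 genes was not tested, beyond the fit with the atrial covariate. With presence of Y-linked transcripts as a covariate, an added alternative, 31 of the 33 control calls and 33 of the 33 DKO calls were kept. The median over the 40 genes was then −0.40 in controls and −0.37 in DKO, beside 42.9% and 42.8% of all genes called.

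The make-up of the c ring transcripts changed with labelled age as well. In controls the Atp5g1 share fell by 5.87 percentage points between labelled day 1 and day 7, with no overlap between the groups (exact permutation p = 0.00216, the smallest that these splits can give, adjusted p = 0.0173). In DKO it differed by −1.94 points (exact permutation p = 0.396, adjusted p = 0.396), and by −5.21 points (exact permutation p = 0.00476, adjusted p = 0.0127) without m1124 and m1128. Whether the change differed between the genotypes was not tested. The ratio of Atpif1 to Atp5b differed by −0.00321 in controls and −0.00332 in DKO, with exact permutation p = 0.186 and 0.162, and neither passed.

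Libraries of 1 group varied among themselves by a median coefficient of variation of 8.78% over the 40 genes in controls labelled day 1, 4.27% in DKO labelled day 1, 11.2% in controls labelled day 7 and 6.97% in DKO labelled day 7. Among the 10 short genes these medians were 11.3, 4.37, 15.9 and 8.14%. The spread between controls was thus the larger at both labelled ages, a difference that was not tested.

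Pseudogene copies of the genes were listed in 8 rows of the table, and 7 were tested. Atp5l2-ps, Atp5l-ps1 and Atp5pb-ps had means of 209, 127 and 215 CPM in controls labelled day 1, so reads of Atp5l and Atp5pb may be divided between gene and copy, and those of Uqcrh and Atp5k may be too. All 7 rows fell with labelled age in both genotypes, as did Atp5k, Atp5l and Uqcrh. All pseudogene rows of the table together took 7.37 to 9.04% of counts among controls labelled day 1, against 8.90 to 10.3% for DKO, and 4.88 to 6.11% and 5.87 to 6.32% at labelled day 7. Atp5o (73.3% of exonic bases inside other genes), Atp5d (26.6%) and Uqcrc2 (19.7%) are uncertain for overlap with neighbouring genes.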

How the data were processed

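The deposited table holds raw counts of reads per gene for 24 libraries, unpooled, per the file headers. The build GRCm39 and the tools bcl2fastq and STAR (2.4.2a) are named in the submitters' processing notes. Which program counted reads, and how it treated shared reads, is not given in the sources used here. Per the labels' protocols, the low-input cDNA kit started from total RNA of left ventricle, and such kits do not mark strand.

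Genes were kept by filterByExpr (minimum count 10), which left 17352. Counts were scaled by TMM and tested with edgeR 4.0.16 (R 4.3.3, robust quasi-likelihood F-test, Benjamini-Hochberg over all genes, threshold 0.05). Genotype was fitted within a labelled age over 12 libraries, and labelled age and the interaction over 24. SE is the absolute log2 difference divided by the square root of F. Levels are CPM after TMM. The fits were tested on simulated data. Gene lengths and overlaps came from GENCODE M21 on GRCm38. Both ratios were tested by exact permutation. Alternatives were DESeq2 1.42.0, limma-voom (limma 3.58.1), other scalings, filters, covariates and libraries left out.

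The genes and lists were chosen with earlier results of these data known. Full values are given for Sdha, Sdhb, Uqcrc1, Uqcrfs1, Cyc1, Cycs, Atp5a1, Atp5b, Atp5g1 to Atp5g3 and Atpif1 whatever their values, and would have been for up to 10 genes past the threshold per genotype comparison. Other genes are named by size or role. The labels do not state that libraries are separate animals, so p-values measure the spread between libraries.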

Additional observations from a re-analysis of the deposited data

Results flagged for a closer look

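In groups of 6 libraries, a library was singled out when its gap to the nearest of the others relative to the group's range exceeded Dixon's critical value at 95%. This was asked of 172 groups, of which chance gives about 8.6, and 16 were found. DKO 33 labelled day 1 accounted for 5 and control m1088 labelled day 7 for 4. DKO 33 was the lowest of its group for Uqcc1 (181 CPM), Atp5g1 (1761 CPM), Cyc1 (1249 CPM), Uqcr10 (597 CPM) and Cycs (1932 CPM). Control m1088 was the lowest for Uqcc2 (63.4 CPM), Atp5h (650 CPM), Uqcrq (366 CPM) and Atp5k (62.5 CPM). DKO m1026 was the lowest for Atp5mpl (139 CPM) and Atp5md (157 CPM). DKO 69 was the lowest for Atp5c1 (1143 CPM), and control 13 for Uqcrq (697 CPM). DKO 79 was the highest for Uqcr11 (835 CPM), DKO m1046 for Sdhaf2 (46.1 CPM) and DKO m1092 for Atpif1 (201 CPM).

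In pseudogene rows, which the comparisons of the 40 genes did not use, 3 of 7 were higher in DKO at labelled day 1. Of all genes tested 9.81% were higher. Of those 1702 genes 884 were protein-coding, as were 14475 of the 17352 tested, so a rise was common among other rows too. The log2 differences were 0.91 for Uqcrh-ps1, 0.72 for Atp5k-ps2 and 1.39 for Atp5k-ps3, at means of 8.83, 2.79 and 1.07 CPM in controls and 16.7, 4.61 and 2.82 CPM in DKO (n = 6). The genes Uqcrh and Atp5k themselves differed by −0.10 and −0.12. For Atp5k-ps2 the DKO effect differed between the labelled ages by −1.02 (edgeR adjusted p = 0.0326), at means of 0.945 CPM in controls and 0.752 CPM in DKO labelled day 7.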

How the results depend on the processing

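The count of 0 called genes in the genotype comparison at labelled day 1 became 1 with DESeq2 (Atp5j). It became 5 without a trend with exonic length (Atp5h, Atp5k, Uqcc2, Uqcr10, Uqcr11), 11 without one with transcript length and 2 without one with coding length (Atp5e, Atp5j). All of these were lower in DKO, beside 16.4 to 20.4% of all genes called in either direction. The transcript and coding length, Myl7 and Y-linked settings and those without DKO m1124 and m1128 were chosen after seeing the data. The difference of the DKO effect between ages gave 2 genes without the exonic and 3 without the transcript length trend, all higher. Of all genes, 1.03% and 1.15% passed there in either direction. Leaving out 1 library each gave 0 to 2 genes at labelled day 1 (Atp5j with Uqcr11 without control 13, and with Atp5e without control 22), 0 to 0 at labelled day 7 and for the difference of the effects, and 30 to 34 in both age comparisons. The 33 calls with age in DKO became 25 with the atrial covariate and 28 without DKO m1124 and m1128. Of all genes tested, 29% and 47.4% passed in these fits, against 52.5% in the main fit. With 1 library left out each, the Atp5g1 share differed between genotypes by 1.59 to 2.55 percentage points at labelled day 1. At labelled day 7 the range was 4.65 to 7.22. Between ages it was −6.45 to −5.46 (control) and −3.39 to −0.831 (DKO). In the same analyses and order, the Atpif1 to Atp5b ratio differed by 0.00559 to 0.00788, 0.00528 to 0.00773, −0.00445 to −0.00177 and −0.00404 to −0.00212. Without DKO m1124 and m1128, the Atpif1 ratio at labelled day 7 lost its call (0.00523) and the Atp5g1 share in DKO passed between ages (−5.21). Without the transcript length trend Atp5l at labelled day 1 turned to −0.22 and Atpif1 between ages in DKO to 0.0354. The cause was not tested.

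No paired analysis was possible because the labels give no shared replicate numbers. Depth limits the lowest genes, such as Sdhaf1 at a mean of 5.85 CPM in controls labelled day 1.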
